A study of Mus musculus with 12 samples.

Results

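The nuclear-encoded subunits of the respiratory chain were examined in intestinal epithelium of mice given the dioxin TCDD, a ligand of the aryl hydrocarbon receptor (AhR). They were chosen by name, as protein-coding genes whose GENCODE M21 symbol begins with Nduf (complex I, Ndufaf assembly factors left out), Sdha to Sdhd (complex II), Uqcr (complex III), Cox4 to Cox8 (complex IV) or Atp5 (complex V). The complex was thus given by the symbol, so Ndufa4, a subunit now placed in complex IV, is counted under complex I throughout. Of 85 such genes among 46078 in the files, 82 had at least 10 counts summed over the 12 libraries, and 79 of these passed the filter on low counts among 15823 genes tested. Cox4i2 with 22 counts, Cox6a2 with 18 and Ndufa4l2 with 20 did not pass it. Cox8b had 4 counts, and Cox7b2 and Cox8c had 0.

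The animals were male C57BL/6 mice dosed by gavage, either with the sesame oil vehicle alone or with TCDD in it at 3, 10 or 30 µg/kg. They received 7 treatments, 4 days apart, between 28 and 56 days of age. RNA came from scrapings of the proximal ileal epithelium, and each of the 4 groups held 3 libraries, which the series describes as biological replicates. In such bulk samples, fewer cells of a type and less RNA per cell cannot be told apart.

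Complexes I, II, III and IV pass electrons from NADH or succinate to oxygen within the inner mitochondrial membrane, and complexes I, III and IV pump protons as they do so. Complex V, the ATP synthase, lets the protons return and makes ATP. Apart from complex II, each complex joins a few large catalytic proteins to many small accessory ones, and a minority of the subunits is encoded in mitochondrial DNA. Absorptive enterocytes depend on this chain for nutrient uptake.

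Libraries held between 11695887 and 22180274 counts assigned to genes. The AhR target Cyp1a1 ranged from 19.0 to 27.5 CPM in vehicle, where CPM is the usual unit of counts scaled to a common library size. With rising dose it ranged from 22.2 to 141, then from 873 to 1333 and then from 2608 to 3251 CPM. The 5 enterocyte markers Epcam, Vil1, Cdh1, Alpi and Fabp2 summed to 8139 to 8986 CPM in vehicle, and their sum at the top dose was 8371 to 10190 CPM. The 2 bile acid genes taken here as ileal markers were nearly absent from vehicle, 10 and 30 µg/kg. Fabp6, the ileal bile acid binding protein, was at most 0.306 CPM there, while the lowest dose had 22.9 to 38.3 CPM. Slc10a2, the bile acid transporter, was at most 2.68 CPM there, while the lowest dose had 5.46 to 16.5 CPM. The epithelial markers thus match the labelled epithelium, but these ileal markers were nearly absent from 9 of the libraries, and the 3 µg/kg libraries stand apart in this respect. A difference in intestinal segment and the 3 µg/kg dose cannot be told apart.

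At 30 µg/kg many of the small subunits were higher than in vehicle. Most of the nuclear-encoded catalytic subunits had values near those of vehicle, with Ndufv2 (log2 change 0.44) an exception. In edgeR's quasi-likelihood test with Benjamini-Hochberg (BH) adjustment over all genes tested, 39 of 79 subunit genes had an adjusted p under 0.05 and were higher, against 4.3% of all genes. Of these, 21 were called, meaning that they also rose at least 1.5-fold, against 3.08% of all genes. None was lower by adjusted p (1.81% of all genes) or at an unadjusted p under 0.05 (10% of all genes) in edgeR. DESeq2 called 20 and limma-voom 21, all higher. With the trend of transcript length and GC content removed, as described further on, 1 to 4 were called. In 53 of 79 genes each 30 µg/kg library lay above every vehicle library, a pattern seen in 14.2% of all genes. The median log2 change was 0.37 over the 79 genes and -0.02 over all genes.

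Few subunits passed the adjusted test at the lower doses. At 3 µg/kg no subunit was called (0.0569% of all genes were called higher and 0.171% lower), by edgeR, DESeq2 or limma-voom, and 17 were higher at an unadjusted p under 0.05 in edgeR (6.48% of all genes). Adjusted p alone passed 2 at this dose (0.0695% of all genes), Ndufv2 and Atp5g2. At 10 µg/kg 1 subunit was called, Atp5k (0.487% of all genes), and Ndufv2, Atp5g2 and Atp5k had an adjusted p under 0.05 (0.569%). At this dose 29 were higher at an unadjusted p under 0.05 (7.99% of all genes), and in 32 each library lay above every vehicle library (11.9% of all genes). The median log2 change was 0.09 at 3 µg/kg and 0.17 at 10 µg/kg. No subunit was called between 3 and 10 µg/kg (0.145% of all genes higher and 0.0126% lower) by any of the 3 tools, with 4 higher at an unadjusted p under 0.05 (1.91% of all genes). Between 10 and 30 µg/kg 9 were called, all higher (2.17% of all genes): Ndufa3, Ndufa6, Ndufa11, Uqcr10, Uqcr11, Cox5b, Cox6b1, Cox8a and Atp5e. These comparisons share libraries, so their counts are not independent of each other. Without replicate 3 of 10 µg/kg the count of 9 became 16, and without replicate 3 of 3 µg/kg the count at that dose became 2. A rising trend over dose rank had an adjusted p under 0.05 in 30 subunits (3.26% of all genes), a count that fell to 13 without replicate 1 or replicate 3 of 30 µg/kg, and any difference among the 4 groups in 36 (6.78%).

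**Figure D1:**
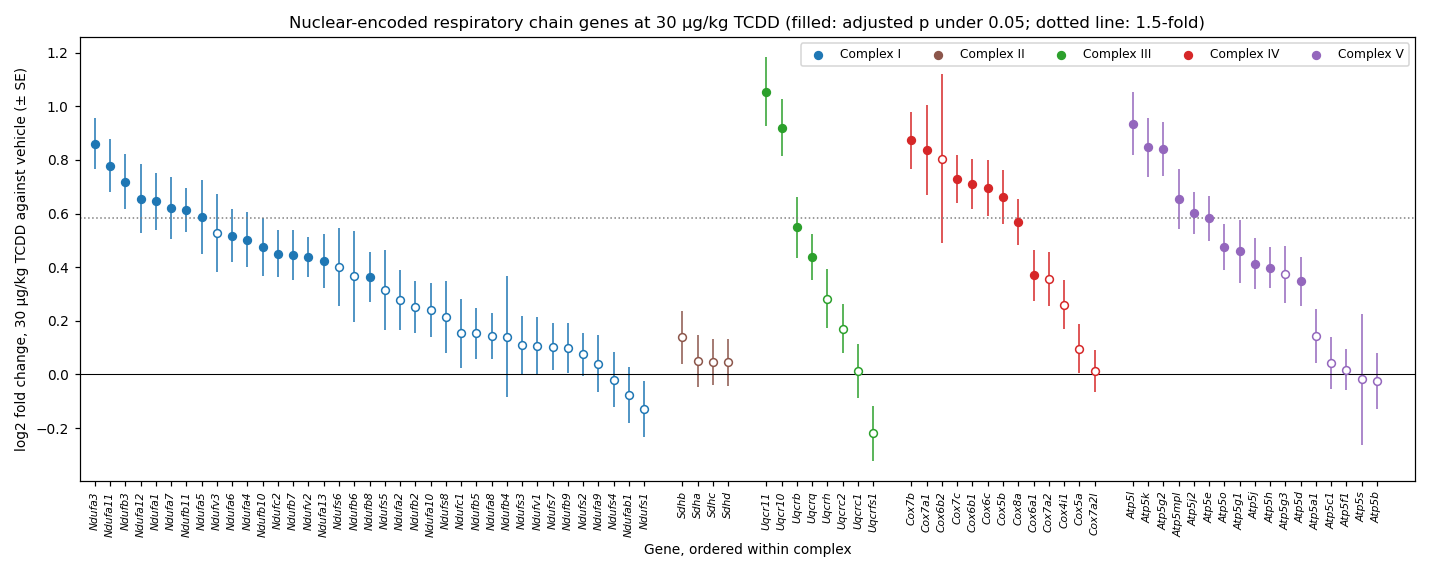
Log2 fold change at 30 µg/kg TCDD against vehicle (vertical axis, ± SE) for the 79 subunit genes, grouped by complex and ordered within it. Filled points have an adjusted p under 0.05 in edgeR; all filled points lie above 0, and none of the 4 complex II points is filled.

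Complex I, the NADH dehydrogenase, was the largest group with 37 genes tested, of which 16 had an adjusted p under 0.05 at 30 µg/kg and 8 were called. Its median log2 change was 0.36. The 30 genes grouped as accessory had a median of 0.41 and held 15 of the 16. Apart from Ndufa4, they stabilise the complex around its catalytic core. Ndufa4 was among the 15 (log2 change 0.50, SE 0.10, adjusted p = 0.0131). With the exon and principal transcript length trends removed, the accessory genes had medians of 0.15 and -0.042. By adjusted p, 4 and 0 of them were then higher (2.69% and 2.26% of all genes). Ndufa3 (chromosome 7, 3617373 to 3620327), a small membrane-arm subunit, was at 52.3, 52.7 and 51.7 CPM in vehicle, at 51.0, 48.7 and 56.8 CPM at 10 µg/kg, and at 100.3, 89.3 and 94.8 CPM at 30 µg/kg. The 30 µg/kg libraries stood well clear of the other groups, and the log2 change was 0.86 (SE 0.09, adjusted p = 0.000187). Ndufa11 (chromosome 17, 56717767 to 56722141), a membrane subunit, had 19.6, 21.6 and 22.6 CPM in vehicle and 36.8, 37.2 and 35.6 CPM at 30 µg/kg, with no overlap and a log2 change of 0.78 (SE 0.10, adjusted p = 0.000576). Ndufb11, on the X chromosome, rose by 0.61 (SE 0.08, adjusted p = 0.000733). Exons of Ndufa3 overlap those of Tfpt on the opposite strand, those of Ndufa11 overlap Vmac, and those of Ndufb11 overlap Rbm10. The strand setting of the counting is not given in the sources used here, so reads of the partners cannot be told apart.

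The 7 core genes of complex I that were tested encode the proteins carrying flavin and iron-sulfur clusters, and their median log2 change at 30 µg/kg was 0.11. Ndufv2 (chromosome 17, 66078638 to 66101559), which carries an iron-sulfur cluster beside the flavin site, was the 1 core gene that passed. It was at 63.6, 62.2 and 66.2 CPM in vehicle, and its 9 libraries on TCDD lay between 80.7 and 91.9 CPM. Its log2 change was 0.48 (SE 0.08, adjusted p = 0.0213) at 3 µg/kg, 0.45 (SE 0.08, adjusted p = 0.0184) at 10 µg/kg and 0.44 (SE 0.08, adjusted p = 0.00443) at 30 µg/kg. The level at the lowest dose was thus as high as at the highest, a pattern unlike that of Ndufa3, although the 3 µg/kg libraries are those that differ in ileal markers. Ndufs1, the largest core protein, was at 98.0, 108 and 120 CPM in vehicle and at 109, 87.8 and 100.4 CPM at 30 µg/kg, and the groups overlapped (log2 change -0.13, SE 0.10, adjusted p = 0.505). Ndufv1, which binds NADH and flavin, had a log2 change of 0.11, as had Ndufs3, and Ndufs7 and Ndufs8 had 0.10 and 0.21; none of these passed. Ndufb9, an accessory gene with the highest level per kilobase in complex I, was also near its vehicle level, with a log2 change of 0.10 (SE 0.09, adjusted p = 0.581).

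Complex II, succinate dehydrogenase, also belongs to the citric acid cycle and has no mitochondrially encoded subunit. None of its 4 genes had an adjusted p under 0.05 at any dose. Sdha (chromosome 13, 74322254 to 74350280), the flavoprotein that oxidises succinate, was at 363, 402 and 438 CPM in vehicle and at 441, 403 and 402 CPM at 30 µg/kg, so that the vehicle range held both lower libraries of that dose. Its log2 change was 0.05 (SE 0.10, adjusted p = 0.816). Sdhb, the iron-sulfur subunit, changed by 0.14 (SE 0.10), and the membrane anchors Sdhc and Sdhd by 0.05 (SE 0.09) and 0.04 (SE 0.09).

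Complex III, the cytochrome bc1 complex, divided by size of subunit as fitted. Of its 5 small genes, 4 had an adjusted p under 0.05 at 30 µg/kg and the median log2 change was 0.55, while none of the 3 core genes passed and their median was 0.01. The small genes have shorter transcripts (median 535 nt against 1653 nt). With the exon and principal transcript length trends removed, the small genes had medians of 0.20 and 0.16, and none of them passed. The core genes then had medians of -0.014 and -0.041. Uqcr11 (chromosome 10, 80402997 to 80406830), the smallest subunit, had the largest rise of all 79 genes. It was at 28.3, 32.5 and 37.2 CPM in vehicle, at 35.9, 34.4 and 45.4 CPM at 10 µg/kg, and at 73.5, 62.8 and 66.8 CPM at 30 µg/kg. No library of the highest dose overlapped the rest, and the change of 1.05 on the log2 scale (SE 0.13, adjusted p = 0.000392) equals 2.08-fold. Uqcr10 (chromosome 11, 4701973 to 4704342), a further small subunit, rose from 37.3, 37.7 and 35.3 CPM in vehicle to 65.4, 69.5 and 74.1 CPM at 30 µg/kg (log2 change 0.92, SE 0.11, adjusted p = 0.000281). Uqcrh, the hinge protein that helps cytochrome c bind, changed by 0.28 (SE 0.11, adjusted p = 0.16). Uqcrc1, a core protein, was at 313, 357 and 347 CPM in vehicle and at 372, 310 and 344 CPM at 30 µg/kg, overlapping throughout, with a log2 change of 0.01. Uqcrc2, its partner, changed by 0.17 (SE 0.09, adjusted p = 0.305). Uqcrfs1, the Rieske iron-sulfur protein, was at 100.3, 116 and 124 CPM in vehicle, at 129, 128 and 145 CPM at 10 µg/kg and at 104, 88.4 and 100.3 CPM at 30 µg/kg. It did not pass against vehicle (log2 change -0.22, SE 0.10, adjusted p = 0.232) but fell by 0.45 from 10 to 30 µg/kg (SE 0.10, adjusted p = 0.0257). The accessory complex I gene Ndufs4, named after its values were seen, fell by 0.40 (SE 0.10, adjusted p = 0.0461) in the same comparison, and these were the 2 subunits that did so (1.67% of all genes), beside 23 that rose (3.01%).

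Complex IV, cytochrome c oxidase, had a median change over its 13 genes tested of 0.66 (log2) at the top dose, the highest of the 5 complexes as fitted, and the shortest transcripts (median 618 nt). With either length trend removed its median was 0.069 and that of complex V was highest (0.29 with exon length and 0.086 with principal transcript length). Its catalytic subunits are encoded in mitochondrial DNA, and the nuclear genes encode the smaller proteins around them. Of the 13, 8 had an adjusted p under 0.05 and 6 were called. Cox7b (chromosome X, 106015700 to 106022450) was at 68.9, 71.3 and 75.6 CPM in vehicle, from 79.5 to 92.8 CPM at the lowest dose, from 80.0 to 102 CPM at the middle dose, and at 145, 126 and 124 CPM at the highest. Vehicle lay below each dose and 30 µg/kg above all, and the log2 change was 0.87 (SE 0.11, adjusted p = 0.000389). Cox7c was at 93.2, 90.6 and 90.3 CPM in vehicle and at 166, 146 and 142 CPM at 30 µg/kg (log2 change 0.73, SE 0.09, adjusted p = 0.000382). Cox6b1, which bridges the monomers on the cytochrome c side, was at 93.9, 94.6 and 99.1 CPM in vehicle and at 155, 151 and 165 CPM at 30 µg/kg (log2 change 0.71, SE 0.09, adjusted p = 0.000733). Cox6a1 and Cox8a, the ubiquitous isoforms of their subunits, rose by 0.37 (SE 0.09, adjusted p = 0.0384) and 0.57 (SE 0.08, adjusted p = 0.00166) on the log2 scale, both below 1.5-fold. Cox4i1 changed by 0.26 (SE 0.09, adjusted p = 0.118).

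Several complex IV subunits have paralogs with known tissue preferences. Cox7a1, the form typical of heart and skeletal muscle, was measured in this epithelium at 27.5, 24.9 and 35.7 CPM in vehicle and at 59.5, 46.6 and 50.9 CPM at 30 µg/kg, with no overlap (log2 change 0.84, SE 0.17, adjusted p = 0.0112). Its log2 change was 0.054 and 0.069 with the exon and principal transcript length trends removed, and without vehicle replicate 2 it lost its call (0.73, adjusted p = 0.0519). Its ubiquitous counterpart Cox7a2 changed by 0.36 (SE 0.10, adjusted p = 0.056), and the related Cox7a2l by 0.01 (SE 0.08, adjusted p = 0.948). Per kilobase of principal transcript, Cox7a1 made up 25.8% to 34.5% of the summed level of these 3 genes in vehicle. With rising dose its share was 31.9% to 38.2%, 33.5% to 34.5% and 37.5% to 40.1%, so the lowest and top doses overlapped. No length trend was removed from these shares. The muscle forms Cox6a2 and Cox8b were nearly absent, with 18 and 4 counts in all libraries together. Of 5 markers of striated muscle, Ckm, Myh2, Actc1 and Tnnt3 were at or near 0 (at most 0.508 CPM), whereas Acta1 had a mean of 3.19 CPM ± 1.79 (SD, n = 3) in vehicle and of 132 CPM ± 60.9 (SD, n = 3) at the top dose; its part in the Cox7a1 result was not tested. Cox6b2, the testis form, had at most 20.5 CPM and did not pass (log2 change 0.81, SE 0.32, adjusted p = 0.16).

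Complex V contributed 17 genes, 11 with an adjusted p under 0.05 at 30 µg/kg and 5 called. All 4 small membrane proteins were called, with a median log2 change of 0.75. With the exon and principal transcript length trends removed, their median was 0.46 and 0.20, and 2 and 0 passed by adjusted p. Atp5k (chromosome 5, 108433244 to 108434448), subunit e, which helps ATP synthase form dimers, was at 46.8, 41.9 and 47.3 CPM in vehicle and at 69.9, 66.2 and 59.1 CPM at 3 µg/kg. It reached 73.8, 72.0 and 85.3 CPM at 10 µg/kg and 81.6, 71.9 and 91.0 CPM at 30 µg/kg. All dosed libraries exceeded vehicle, and the log2 change was 0.77 (SE 0.11, adjusted p = 0.00553) at 10 µg/kg and 0.85 (SE 0.11, adjusted p = 0.000603) at 30 µg/kg. Atp5l, subunit g, was at 31.0, 28.6 and 30.2 CPM in vehicle and at 63.2, 52.4 and 55.8 CPM at 30 µg/kg (log2 change 0.94, SE 0.12, adjusted p = 0.00047). Its exons overlap Gm30934 on the opposite strand. Atp5j2, subunit f, rose by 0.60 (SE 0.08, adjusted p = 0.000535).

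The c ring, the rotor of ATP synthase, is built from 1 mature protein encoded by 3 genes. Atp5g2 (chromosome 15, 102662864 to 102672352) was at 26.8, 27.9 and 27.0 CPM in vehicle, at 41.1, 44.9 and 33.8 CPM at 3 µg/kg, at 39.0, 36.9 and 40.5 CPM at 10 µg/kg and at 48.8, 50.5 and 47.3 CPM at 30 µg/kg. Each dosed library was above vehicle, with log2 changes of 0.55 (SE 0.10, adjusted p = 0.0476), 0.51 (SE 0.10, adjusted p = 0.0389) and 0.84 (SE 0.10, adjusted p = 0.000353). Atp5g1 changed by 0.46 (SE 0.12, adjusted p = 0.0378) and Atp5g3 by 0.37 (SE 0.11, adjusted p = 0.0593) at 30 µg/kg. Atp5g3 supplied between 85.7% and 87.0% of their summed level per kilobase in vehicle and between 79.2% and 83.8% in the dosed libraries, whereas Atp5g2 supplied between 9.70% and 10.3% in vehicle and between 12.3% and 16.6% in the dosed ones.

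The catalytic head of ATP synthase is formed with the α, β and γ subunits, none of which passed the test at 30 µg/kg. Atp5b (chromosome 10, 128083273 to 128090391), the catalytic β subunit, had the highest level per kilobase of all 79 genes, 663 CPM per kilobase in vehicle. It was at 1166, 1316 and 1331 CPM in vehicle and at 1347, 1209 and 1195 CPM at 30 µg/kg, with overlapping groups and a log2 change of -0.02 (SE 0.11, adjusted p = 0.931). Atp5a1, the α subunit, changed by 0.14 (SE 0.10, adjusted p = 0.446) and Atp5c1, the γ subunit, by 0.04 (SE 0.10, adjusted p = 0.848). Atp5e, the small ε subunit, rose by 0.58 (SE 0.08, adjusted p = 0.00129), just below 1.5-fold.

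**Figure D2:**
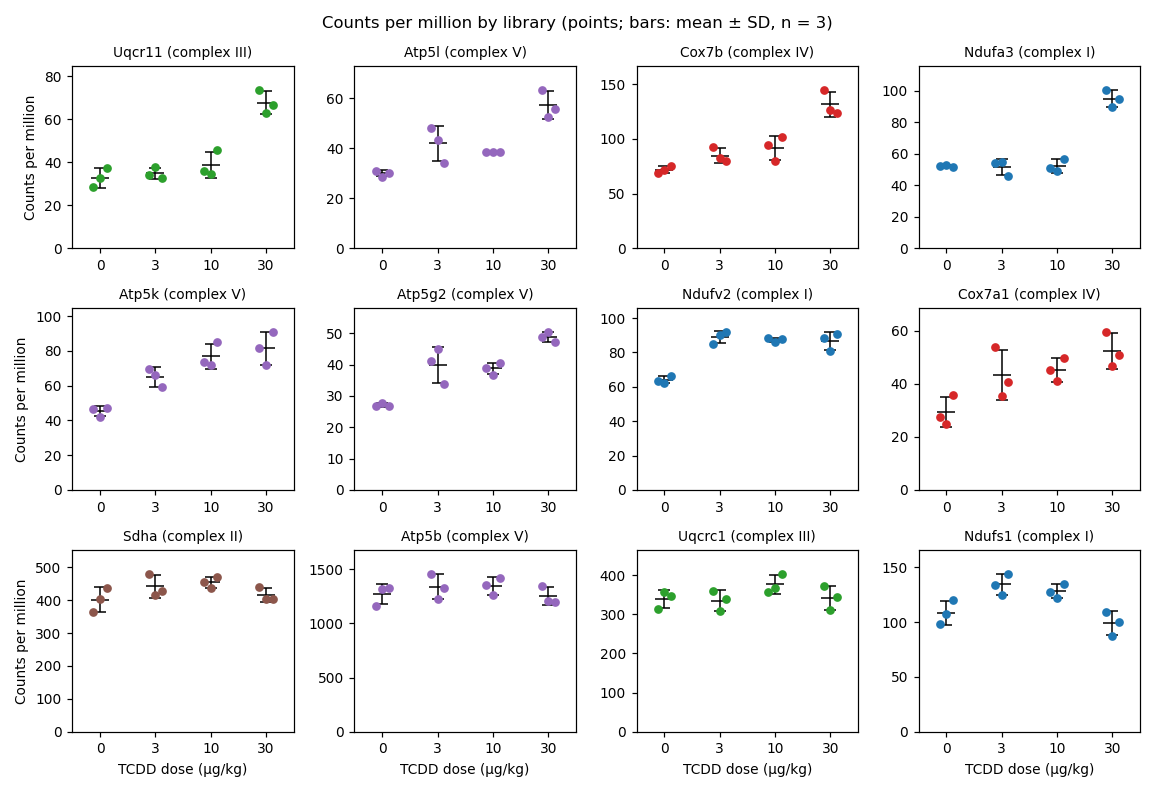
CPM of 12 subunit genes in each library (points) by TCDD dose in µg/kg, with 0 for vehicle; bars give the mean ± SD of 3 libraries and each vertical axis starts at 0. Uqcr11 and Ndufa3 are raised at 30 µg/kg alone, Ndufv2 and Atp5g2 at each dose, and Sdha, Atp5b, Uqcrc1 and Ndufs1 overlap between vehicle and 30 µg/kg.

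The change at 30 µg/kg was larger in shorter transcripts. Length was taken as that of the principal coding transcript, since the union of exons is stretched by retained introns in some genes (6443 nt for Atp5l, whose principal transcript has 544 nt). Across the 79 genes, which are not independent replicates, Pearson's r between log2 change and log2 transcript length was -0.64, against -0.45 with log2 exon length and 0.15 with GC content. At 10 and 3 µg/kg r with transcript length was -0.02 and 0.05. Of 47 subunit genes under 1000 nt, 32 had an adjusted p under 0.05 and 19 were called, with a median log2 change of 0.52. Of 32 genes of 1000 nt or more, 7 had an adjusted p under 0.05 and 2 were called (Cox7b and, named after its values were seen, Ndufa12), with a median of 0.11. By exon length, the median was 0.74 in the 4 subunit genes under 600 nt, 0.50 in the next 14 up to 1000 nt, 0.48 in the next 31 up to 2000 nt, 0.14 in the next 19 up to 4000 nt and 0.05 in the 11 of 4000 nt or more.

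Other protein-coding genes showed the same order with length. In the 13165 other coding genes r with transcript length was -0.22. For transcripts under 600 nt the median log2 change at 30 µg/kg was 0.63 in 20 subunit genes and 0.71 in 170 other genes. From 600 nt to just under 1000 nt it was 0.44 in 27 subunit genes and 0.29 in 599 others, up to 2000 nt 0.11 in 24 and 0.08 in 2750, and up to 4000 nt 0.05 in 6 and -0.02 in 5429. At 4000 nt or more it was 0.36 in 2 subunit genes and -0.07 in 4217 others. Up to 4000 nt the medians of both sets thus fell from band to band. Among genes under 1000 nt, 68.1% of subunit genes and 27.0% of others had an adjusted p under 0.05 and were higher; the subunit genes were not matched to the others for level.

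**Figure D3:**
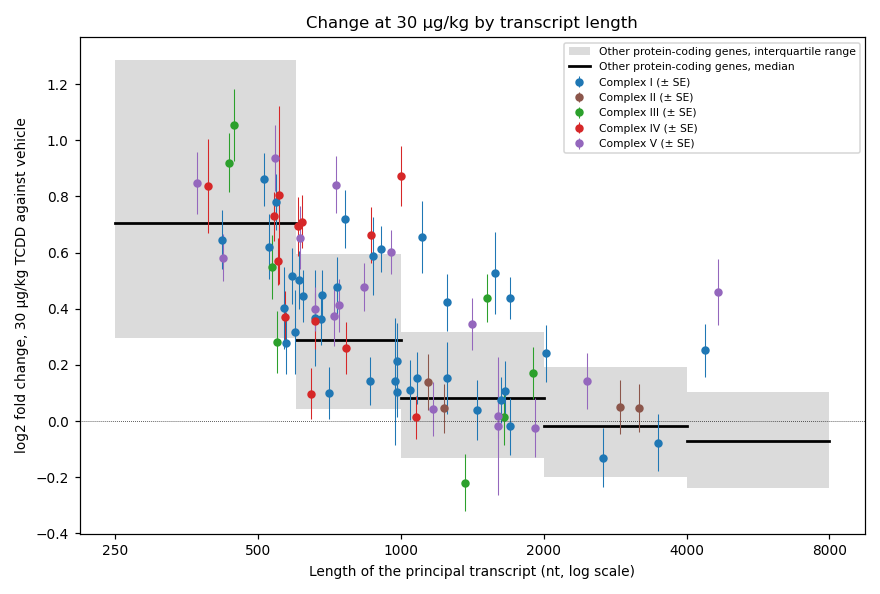
Log2 fold change at 30 µg/kg against vehicle (± SE) by length of the principal transcript (nt, log scale) for the 79 subunit genes, coloured by complex; black lines and grey bands give the median and interquartile range of other protein-coding genes in 5 length bands. The points descend with length as the medians of other genes do, which run from 0.71 under 600 nt to -0.07 at 4000 nt and over, except for 2 subunit genes above 4000 nt.

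The length pattern was present in every 30 µg/kg library and in 1 library of 10 µg/kg. The slope of log2 deviation from the vehicle mean per doubling of transcript length, over coding genes, lay between -0.02 and 0.02 in vehicle, between -0.13 and -0.10 at 30 µg/kg, and at -0.09 in 10 µg/kg replicate 3. That replicate also had the highest median deviation of the subunit genes at its dose, 0.27 against 0.13 and 0.08. At 30 µg/kg the share of reads aligned to more than 1 place was between 36.2% and 38.8%, above the range of 31.4% to 34.6% in the other libraries. The share of reads assigned to no gene was at most 25.4% there and at least 28.0% in each of the other libraries. The part of these library differences in the subunit results was not tested.

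**Figure D4:**
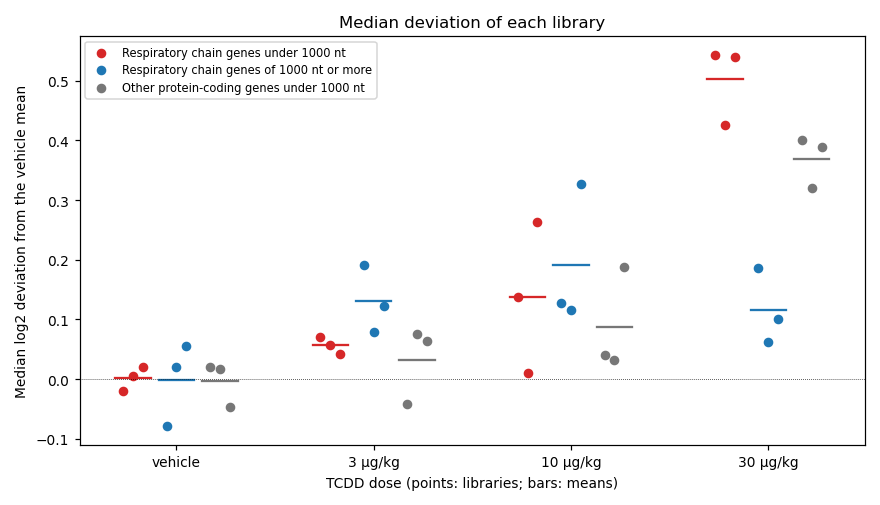
Median log2 deviation from the vehicle mean in each library (points; bars are means of 3) for 47 subunit genes under 1000 nt, 32 of 1000 nt or more and 769 other protein-coding genes under 1000 nt. At 30 µg/kg both short sets are raised in all 3 libraries, to between 0.43 and 0.54 and between 0.32 and 0.40, while the longer subunit genes lie between 0.06 and 0.19.

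Each library's trend of level with length and GC content, fitted on other coding genes, was then removed. With exon length, 4 subunits were called at 30 µg/kg (Atp5g2, Cox6c, Cox7b and Atp5l; 1.94% of all genes called higher) and the median log2 change was 0.12. By adjusted p, 16 were then higher (2.69% of all genes) and 2 lower (1.79%), Uqcrfs1 at -0.47 and, named after its values were seen, Ndufa8 at -0.34. With principal transcript length, an alternative chosen after the data were seen, 1 was called, Cox7b (1.67% of all genes), and the median was -0.019. By adjusted p, 3 were then higher (2.26% of all genes) and 1 lower (1.49%). Cox7b then changed by 0.67 (SE 0.12, adjusted p = 0.00625). Ndufv2 changed by 0.44 (SE 0.08, adjusted p = 0.00628) and Atp5g1 by 0.51 (adjusted p = 0.0361), while Cox5a, named after its values were seen, was lower at -0.38 (adjusted p = 0.049). Uqcr11 was then at 0.26 (adjusted p = 0.284), Ndufa3 at 0.16 (adjusted p = 0.433) and Atp5k at 0.09 (adjusted p = 0.753). Cox7b kept its call in the 6 fits that left out 1 library and under the 13 other settings tried, with log2 changes from 0.61 to 0.91. The log2 change of Ndufv2 lay between 0.40 and 0.49 under the same settings and its adjusted p was at most 0.0267.

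**Figure D5:**
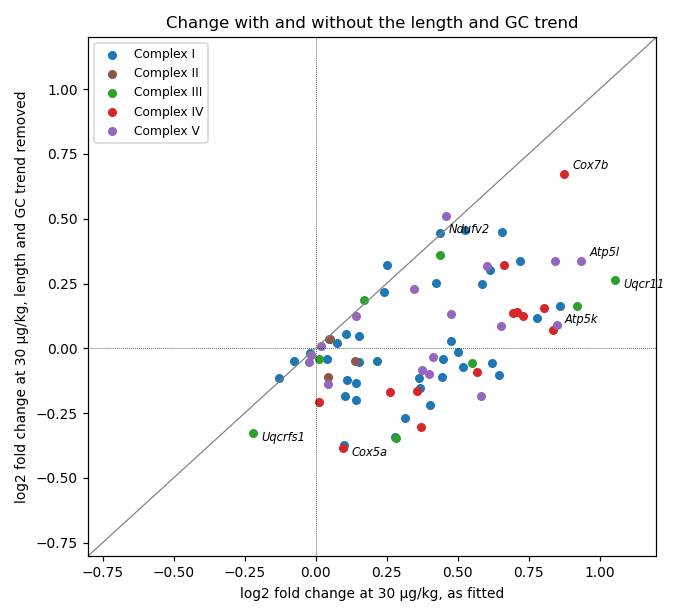
Log2 fold change at 30 µg/kg of the 79 subunit genes as fitted (horizontal) and with the trend of principal transcript length and GC content removed (vertical); the diagonal marks equal values. Uqcr11, Atp5l and Atp5k fall far below the diagonal, to 0.26, 0.34 and 0.09, whereas Cox7b keeps 0.67 and Ndufv2 lies on it.

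The promoters of 4 subunits are shown, since they span the patterns described: Uqcr11, with the largest rise at 30 µg/kg, Atp5k, called at 10 µg/kg too, Cox7b, which kept its call with the length trend removed, and Atp5b, which stayed at the vehicle level. Each is the 250 bases before the RefSeq start in build GRCm38.p6, with capitals for the AhR core GCGTG, for the letters CATGCGC from the NRF1 motif, and for the ETS motif CGGAAG, each on either strand. NRF1 and the ETS protein GABP are known regulators of respiratory chain genes. The positions are chr10:80406822-80407071 on the minus strand, chr5:108434400-108434649 on the minus strand, chrX:106015450-106015699 on the plus strand and chr10:128083057-128083306 on the plus strand.
Uqcr11: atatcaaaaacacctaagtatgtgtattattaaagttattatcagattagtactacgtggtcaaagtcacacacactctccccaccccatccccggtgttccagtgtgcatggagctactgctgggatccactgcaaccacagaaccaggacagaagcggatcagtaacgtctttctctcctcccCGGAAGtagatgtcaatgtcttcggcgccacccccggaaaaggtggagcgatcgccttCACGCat
Atp5k: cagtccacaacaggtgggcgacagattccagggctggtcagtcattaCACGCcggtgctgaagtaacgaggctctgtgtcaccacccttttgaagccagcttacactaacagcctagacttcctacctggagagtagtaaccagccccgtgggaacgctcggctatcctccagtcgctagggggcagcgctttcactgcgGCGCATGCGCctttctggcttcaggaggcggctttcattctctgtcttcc
Cox7b: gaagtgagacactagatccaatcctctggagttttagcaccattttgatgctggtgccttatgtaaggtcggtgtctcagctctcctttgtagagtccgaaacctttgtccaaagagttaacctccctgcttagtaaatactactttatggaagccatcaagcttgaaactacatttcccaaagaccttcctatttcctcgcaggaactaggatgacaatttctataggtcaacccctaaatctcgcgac
Atp5b: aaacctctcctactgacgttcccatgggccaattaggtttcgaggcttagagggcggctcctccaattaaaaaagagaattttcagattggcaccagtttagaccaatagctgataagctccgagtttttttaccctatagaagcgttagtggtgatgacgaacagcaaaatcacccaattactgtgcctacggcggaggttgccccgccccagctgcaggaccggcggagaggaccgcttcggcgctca
The Uqcr11 window held 1 AhR core and 1 ETS motif, that of Atp5k 1 AhR core and 2 overlapping NRF1 letter runs on opposite strands, and those of Cox7b and Atp5b none of the 3. Of the 79 subunits 67 matched a RefSeq promoter. The AhR core was in 38.8% of their 250-base windows and in 33.6% of those of 17492 protein-coding genes, the NRF1 letters in 14.9% and 4.01%, and the ETS motif in 28.4% and 17.2%. Apart from that pair, no matches overlap in the windows shown. Of the 35 matched subunits with an adjusted p under 0.05 at 30 µg/kg, 42.9% held the AhR core, 20% the NRF1 letters and 28.6% the ETS motif, against 34.4%, 9.38% and 28.1% of the other 32. A match is a description of letters and does not show binding.

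Other genes that serve the chain were taken from lists of assembly factors, carriers and regulators. Of 51 assembly factors tested over all complexes, 1 was called at 30 µg/kg (1.96%, against 3.08% of all genes called higher). It was Coa6, a factor for complex IV (log2 change 0.89, SE 0.21, adjusted p = 0.0256), and the median over the 51 was 0.15. With either length trend removed none of the 51 was higher by adjusted p. With the exon length trend removed 1 was lower (1.79% of all genes), and with that of principal transcript length none was. None of 13 citric acid cycle genes and none of 15 genes of mitochondrial biogenesis, Ppargc1a, Nrf1 and Tfam among them, had an adjusted p under 0.05, with medians of 0.12 and -0.10. Of 13 genes for coenzyme Q and cytochrome c, 1 was called (7.69%, against 3.08% of all genes), Coq6 (0.64, SE 0.12, adjusted p = 0.00708). Coq7 also passed by adjusted p (0.52, adjusted p = 0.0327), making 2 of the 13 higher by that measure (15.4%, against 4.3% of all genes). Cycs, cytochrome c itself, changed by 0.40 (adjusted p = 0.0594) and Cyc1 by 0.16 (adjusted p = 0.388). These lists have longer transcripts than the subunits, with median lengths of 1673 nt for the assembly factors, 2544 nt for the cycle and 3656 nt for biogenesis against 861 nt.

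The subunits encoded in mitochondrial DNA were partly measurable. Of 13, mt-Nd3, mt-Nd4l, mt-Co2 and mt-Co3 had at most 49 counts in all libraries together and mt-Atp6 had 293, although mt-Co1 had 2109603, so levels of those 5 are not interpreted. Of the 9 tested, which still include mt-Atp6, 5 had an adjusted p under 0.05 at 30 µg/kg, all higher (55.6%, against 4.3% of all genes). None did with either length trend removed. The median log2 change over the 9, mt-Atp6 included, then fell from 0.54 to 0.16 (exon length) or 0.31 (principal transcript). The counts of mt-Atp8, a short complex V gene, rose from 492, 384 and 418 CPM in vehicle to 965, 823 and 825 CPM (log2 change 1.01, SE 0.11, adjusted p = 0.000195). Its positions (7766 to 7969) overlap those of mt-Atp6 (7927 to 8607), but it had 101126 counts against 293, so its level is uncertain too. The same holds for mt-Nd4, with 273628 counts, which overlaps mt-Nd4l, with 48. mt-Nd1, mt-Nd2 and mt-Nd5 of complex I and mt-Cytb of complex III rose by 0.55, 0.58, 0.54 and 0.57 (adjusted p between 0.0135 and 0.0298), mt-Nd4 and mt-Nd6 changed by 0.17 and 0.43 without passing, and mt-Co1, the catalytic subunit of complex IV, changed by 0.05 (SE 0.14, adjusted p = 0.89).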

How the data were processed

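The authors deposited unnormalised counts of reads for each Ensembl gene, with a separate file for every library. The submitters' processing notes name FastQC 0.11.3, Trimmomatic 0.33, TopHat2 2.1.0, SAMtools 1.2.0, HTSeq 0.6.1, DESeq and build GRCm38. The annotation release and strand setting are not given in the sources used here. Reads that aligned to more than 1 place or to no gene stood in separate entries and were left out, so subunits with processed pseudogenes may be undercounted. Of 46078 genes 45143 matched GENCODE M21 (0.749% of counts unmatched), which supplied names, positions and lengths.

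The tests used edgeR 4.0.16 (R 4.3.3): filterByExpr, TMM scaling, 1 quasi-likelihood fit of 4 groups, and BH adjustment over all 15823 genes tested. A gene was called at an adjusted p under 0.05 and at least 1.5-fold. CPM used TMM library sizes. Levels per kilobase used the principal transcript. The alternatives were median-of-ratios scaling, TMM without the genes that hold over 1% of a library, no filter or at least 10 counts in every library, DESeq2 1.42.0, limma-voom (limma 3.58.1), the compared groups alone, read index or a circadian clock score as covariate, removal of length and GC trends, and leaving out each replicate. A simulation of the 30 µg/kg comparison on 15823 genes drew independent counts with no length trend and changed 50 genes per fold. By adjusted p alone it recovered 24% of 1.5-fold rises, 78% of 2-fold rises, 100% of 4-fold rises and 10% of 1.5-fold falls. The 30 µg/kg libraries do have a length trend, so these shares need not hold for the subunits.

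The named subunits were those called at a dose (at most 12 per dose, by p), 2 per complex by the test of any difference and 2 by level per kilobase, the catalytic subunits and the paralogs. One result under this rule is not reported here. The members, the gene lists and this rule were chosen with earlier results of these data known. Replicate numbers were given in accession order and pair no samples. A count of 3 equals 0.135 to 0.257 CPM, depending on the library.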

Additional observations from a re-analysis of the deposited data

How the results depend on the processing

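No paired analysis was possible because the labels give the groups no shared replicate numbers. The read index, which occurs once in each group, was fitted as a covariate instead, and 20 subunits were then called at 30 µg/kg. Of the settings tried, removing length trends moved the counts at 30 µg/kg most. The version with principal transcript length and those with length alone or GC alone were chosen after seeing the data. With exon length and GC content removed, the subunits called were 4 at 30 µg/kg (18 by adjusted p, 16 higher and 2 lower), 2 at 10 µg/kg, 1 at 3 µg/kg and 3 from 10 to 30 µg/kg, those with any difference 17 and with a trend 9, and the median log2 change at 30 µg/kg was 0.12. With principal transcript length and GC content removed they were 1 (4 by adjusted p), 2, 1, 1, 6 and 4, and the median was -0.019. With length alone removed they were 1 (5 by adjusted p), 0, 0, 0, 7 and 3, and the median was -0.033. With GC alone removed, 2 were called at 10 µg/kg and 1 at 3 µg/kg. At 10 µg/kg the absence of a filter and DESeq2 each called 2.

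Some log2 changes at 30 µg/kg turned negative when trends were removed. Among the named subunits, those with exon length and GC content removed were Atp5c1 (-0.083), Cox6a1 (-0.27), Cox7a2 (-0.085), Cox7a2l (-0.21), Cox8a (-0.12), Ndufb9 (-0.28), Ndufs7 (-0.056), Ndufs8 (-0.055), Sdhd (-0.26) and Uqcrc1 (-0.014). With principal transcript length and GC content they were Atp5c1 (-0.14), Atp5e (-0.18), Atp5g3 (-0.083), Cox4i1 (-0.17), Cox6a1 (-0.30), Cox7a2 (-0.17), Cox7a2l (-0.21), Cox8a (-0.091), Ndufa4 (-0.016), Ndufb9 (-0.37), Ndufs3 (-0.12), Ndufs7 (-0.18), Ndufs8 (-0.050), Sdhb (-0.049), Sdhd (-0.11), Uqcrc1 (-0.041) and Uqcrh (-0.35). With length alone they were Atp5c1 (-0.13), Atp5e (-0.18), Atp5g3 (-0.076), Cox4i1 (-0.15), Cox6a1 (-0.25), Cox7a2 (-0.16), Cox7a2l (-0.20), Cox8a (-0.073), Ndufa4 (-0.068), Ndufb9 (-0.37), Ndufs3 (-0.12), Ndufs7 (-0.16), Ndufs8 (-0.046), Sdhb (-0.041), Sdhd (-0.10), Uqcrc1 (-0.030) and Uqcrh (-0.36). With GC alone they were Atp5c1 (-0.0049), Cox7a2l (-0.032) and Uqcrc1 (-0.030). None of these named subunits had an adjusted p under 0.05 with a negative value. Outside the naming rule, Ndufa8 was at -0.34 with exon length and GC content removed (edgeR adjusted p = 0.0309) and Cox5a at -0.38 with principal transcript length and GC content removed (adjusted p = 0.049).

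Leaving out 1 library at a time gave 16 to 23 subunits called at 30 µg/kg, 0 to 2 at 3 µg/kg, 6 to 16 from 10 to 30 µg/kg, and 13 to 33 with a trend. Changes near 0 crossed it, with ranges of -0.078 to 0.014 for Atp5b, -0.0004 to 0.040 for Cox7a2l, -0.0091 to 0.12 for Sdha and -0.049 to 0.081 for Uqcrc1. The cause of these changes was not tested. Over all named subunits and settings, 680 values kept their direction and their side of the threshold, 40 lost the call, 4 gained it and 55 changed sign.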

Other observations

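Ribosomal protein genes, which have short transcripts as the respiratory chain subunits do (median 878 nt against 861 nt), had a larger median change at 30 µg/kg. Of 91 genes for cytosolic ribosomal proteins tested, 62 were called higher (68.1%, against 3.08% of all genes) and none lower. Their median log2 change was 0.79 against 0.37 for the subunits. With the trend of principal transcript length and GC content removed, the medians were 0.39 and -0.019. Of 77 genes for mitochondrial ribosomal proteins, which translate the subunits encoded in mitochondrial DNA, 6 were called higher (7.79%), with a median of 0.32. Their transcripts are longer (median 1280 nt). With the exon and principal transcript length trends removed, their median change was 0.21 and 0.14. The difference between these lists was not tested, and many ribosomal protein genes have near-identical pseudogenes, so their counts are uncertain.

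Markers of Paneth cells rose at 30 µg/kg, as did 2 of 5 goblet cell markers, and their part in the subunit results was not tested. The 5 Paneth cell markers summed to 633 to 957 CPM in vehicle and 1918 to 2602 CPM at 30 µg/kg, and 4 of them were called by edgeR, for example Mmp7 with a log2 change of 1.30 (SE 0.27; adjusted p = 0.0142). With either length trend removed 3 Paneth cell markers had an adjusted p under 0.05. The goblet cell markers Tff3 and Zg16 had log2 changes of 0.90 and 0.84, and none of that list had an adjusted p under 0.05 with either length trend removed.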
